A study of Mus musculus with 2 samples.

Results

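The 10 genes described here belong to the tumour necrosis factor (TNF) superfamily and were picked by symbol out of 32285 genes counted in Tc17-polarised mouse CD8 T cells. They are 6 ligands (Tnf, Lta, Ltb, Tnfsf8, Tnfsf11 and Tnfsf14) and 4 receptors (Tnfrsf4, Tnfrsf9, Tnfrsf18 and Tnfrsf25), and all 10 were found in both libraries. One library (KO-labelled below) is labelled NFATc1-deficient and comes from C57/B6N mice with floxed Nfatc1 and Cd4-Cre, a Cre recombinase driven by the Cd4 promoter that is active in the thymus before CD8 T cells mature. The other (WT-labelled below) is labelled wild type and comes from C57/B6N mice for which no floxed allele or Cre is stated. CD8 T cells of both were bead-isolated out of mesenteric lymph nodes, cultured with a commercial Th17 cytokine and antibody kit, and then given PMA (100 ng/ml) plus ionomycin (10 μg/ml) for 3 h, an activator of protein kinase C and a calcium ionophore that together stand in for T cell receptor signalling. The labels give no mouse number, age or sex. With 1 library per group there is no replicate check, no p-value is given, and every interval below is a 95% interval for counting error only.

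TNF superfamily ligands are mostly membrane proteins that assemble as trimers, some of which are shed, and they bind receptors that recruit TRAF adaptors or death domain proteins and signal largely through NF-kappaB. On activated T cells the ligands act on lymphoid stroma, antigen-presenting cells and other T cells, whereas receptors such as OX40, 4-1BB, GITR and DR3 deliver costimulation to the T cell itself. NFAT proteins are calcium-dependent transcription factors that bind the core GGAAA, often beside AP-1, and several ligand genes, Tnf among them, are known NFAT targets.

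After barcodes under 500 genes or over 10% mitochondrial UMIs were dropped, 709 of 754 remained in the KO-labelled library and 1018 of 1149 in the WT-labelled library. They held 17898193 and 24452538 UMIs (unique molecular identifiers, each standing for 1 captured transcript), with medians of 21436 and 20906 per cell, and the libraries shared 0 barcodes. Nfatc1 itself went against the label, at 136 CPM (the UMIs of a gene scaled to a common library total) in the KO-labelled library and 39.8 CPM in the WT-labelled library. A 3′ tag can lie outside the deleted part of a gene, so this level checks neither label, and the libraries are called by their labels throughout. The CD8 identity held in both, since Cd8b1 was seen in 96.5% and 96.6% of cells and 2 or more of 5 CD8 T cell markers in 99.2% and 99.3%. Markers of other cells were scarce. Cd4 was found in 0.564% and 0.295% of cells and Foxp3 in 0.705% and 0.0982%, the NK cell genes Ncr1 and Klrb1c in 0 cells of either library, and the NKT marker Zbtb16 in 3 cells and 1 cell, and no list of gamma delta T, NK, B or myeloid markers gave more than 1 cell with 2 or more of its genes. Dendritic cell markers gave 1 and 2 such cells. The regulatory T cell list (Foxp3, Ikzf2, Il2ra) gave 4.51% and 14.4%, almost without Foxp3. Il2ra, which is also switched on in activated T cells, was in 93.1% and 97.3% of cells, and Ikzf2 in 5.22% and 14.7%. The cytokine genes that sort the cells differed between the libraries, with Il17a at 3572 CPM in the KO-labelled and 11093 CPM in the WT-labelled library, and Ifng at 7368 CPM and 1319 CPM.

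The 250 bases before the transcription start are shown for the 4 members that lay at least 2-fold apart between the libraries and for Tnf, the founding gene of the family. They come from RefSeq on GRCm38.p6, read 5′ to 3′ on the strand of the gene, with each GGAAA or its reverse complement TTTCC in capitals. Tnf lies at chr17:35202008-35202257 on the minus strand, Ltb at chr17:35194257-35194506 on the plus strand, Tnfsf8 at chr4:63861285-63861534 on the minus strand, Tnfsf14 at chr17:57194182-57194431 on the minus strand and Tnfrsf25 at chr4:152115684-152115933 on the plus strand.
Tnf: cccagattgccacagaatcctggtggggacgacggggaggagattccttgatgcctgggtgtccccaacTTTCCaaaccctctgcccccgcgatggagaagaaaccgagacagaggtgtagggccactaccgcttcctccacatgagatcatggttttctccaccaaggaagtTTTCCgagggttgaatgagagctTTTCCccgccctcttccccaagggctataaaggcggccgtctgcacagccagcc
Ltb: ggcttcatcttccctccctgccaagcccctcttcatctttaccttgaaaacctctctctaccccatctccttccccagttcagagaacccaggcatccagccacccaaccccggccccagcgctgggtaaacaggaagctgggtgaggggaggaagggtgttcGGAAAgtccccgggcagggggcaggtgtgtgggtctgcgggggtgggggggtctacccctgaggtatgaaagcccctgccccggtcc
Tnfsf8: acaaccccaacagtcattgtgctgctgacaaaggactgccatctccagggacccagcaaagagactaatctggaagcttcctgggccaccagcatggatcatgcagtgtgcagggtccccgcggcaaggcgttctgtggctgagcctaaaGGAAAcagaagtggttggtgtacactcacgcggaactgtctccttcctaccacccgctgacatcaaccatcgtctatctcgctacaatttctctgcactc
Tnfsf14: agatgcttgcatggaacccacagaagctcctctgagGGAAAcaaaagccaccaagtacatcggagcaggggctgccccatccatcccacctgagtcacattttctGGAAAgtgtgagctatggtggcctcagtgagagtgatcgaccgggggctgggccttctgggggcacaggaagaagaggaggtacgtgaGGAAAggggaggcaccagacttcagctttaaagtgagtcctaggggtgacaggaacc
Tnfrsf25: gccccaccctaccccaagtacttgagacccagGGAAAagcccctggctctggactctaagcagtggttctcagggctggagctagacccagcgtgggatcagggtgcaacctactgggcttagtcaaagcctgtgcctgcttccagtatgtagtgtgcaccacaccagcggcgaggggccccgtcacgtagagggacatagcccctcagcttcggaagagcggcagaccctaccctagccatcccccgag
All 10 members were matched in RefSeq, and GGAAA was read on either strand in the windows of all 10, against 55.6% of 32841 mouse promoter windows of the same length. The genes higher in the KO-labelled library (Tnfsf8, 1 match; Tnfsf14, 3 matches) and those lower in it (Ltb and Tnfrsf25, 1 match each) all held the core, as did Tnf with 3. An AP-1 site (TGANTCA) was read in 1 of 10 windows, that of Tnfsf14, against 6.75% of all windows. A loose kappaB pattern (GGG and CC parted by any 5 bases, both strands, which can overlap GGAAA) was read in 6 of 10, against 45.8%. Tnfrsf9 and Tnfrsf25 have 2 RefSeq starts each, and the start nearest the annotated gene start was taken. The windows not taken hold 1 AP-1 site and 2 kappaB matches (Tnfrsf9), and 2 GGAAA matches (Tnfrsf25). A match is a description of the letters and not a measured binding site.

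Of the 10 members, 4 were at least 2-fold apart between the libraries by a rule of size, which asks for at least 20 CPM in 1 library and a ratio of 2 on log2(CPM + 1). Tnfsf8 and Tnfsf14 were higher in the KO-labelled library, and Ltb and Tnfrsf25 were lower. Among all 5584 genes that reach 20 CPM, 4.35% were called, 2.27% higher and 2.08% lower. The median log2 ratio of the members was 0.10, beside 0.03 over those 5584 genes, whose SD was 0.46. Summed over the 10 genes the level was 2433 CPM in the KO-labelled library and 1957 CPM in the WT-labelled library.

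**Figure D1:**
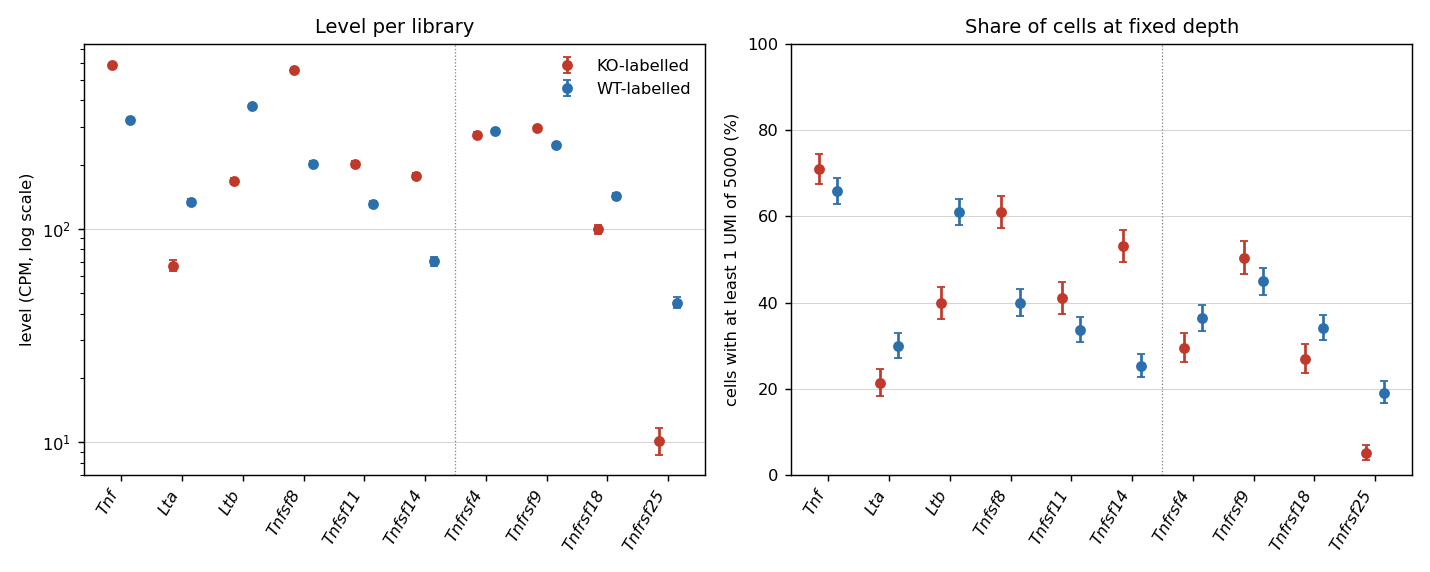
Left, level of each member in the library (CPM, log axis); right, percentage of cells with at least 1 UMI after each cell was thinned to 5000 UMIs. Red, KO-labelled library; blue, WT-labelled library; bars are 95% counting intervals, and the dotted line parts the 6 ligands from the 4 receptors. Tnfsf8 and Tnfsf14 stand higher and Ltb and Tnfrsf25 lower in the KO-labelled library on both axes.

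Shares of cells below are taken after thinning each cell at random to 5000 UMIs, which left 698 KO-labelled and 1004 WT-labelled cells. Among the ligands, Tnf, the founding member, which signals through TNFR1 and TNFR2, stood at 584 CPM in the KO-labelled and 325 CPM in the WT-labelled library, a ratio of 1.80 (1.75 to 1.85). It was seen in 71.1% and 65.9% of cells, and a cell with Tnf held 3.99 and 2.67 UMIs of it on average. Before thinning the shares were 90.8% and 92.0%, so the libraries differed in the amount of Tnf per cell more than in the number of cells that had any. Tnfsf8, which encodes the CD30 ligand, differed in both amount and number of cells. It reached 555 CPM in the KO-labelled and 202 CPM in the WT-labelled library (ratio 2.75, 2.66 to 2.85), in 61.0% and 39.9% of cells, with 4.81 and 2.67 UMIs per cell that had it, and before thinning in 78.4% and 65.0% of cells.

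Tnfsf14, which encodes LIGHT, a ligand of HVEM and of the lymphotoxin beta receptor, was found in more of the KO-labelled cells. Its level was 177 CPM in the KO-labelled and 70.3 CPM in the WT-labelled library (ratio 2.52, 2.38 to 2.68), its share of cells 53.2% and 25.3%, and its UMIs per positive cell 1.71 and 1.52. Before thinning the shares were 84.5% and 58.4%. With so few UMIs per cell, a difference in amount also shows as a difference in share, and these were not told apart. Tnfsf11, the gene of RANKL, the ligand that drives osteoclast formation, was at 201 CPM and 131 CPM, a ratio of 1.54 (1.47 to 1.62) that did not reach 2-fold, with 41.1% of KO-labelled and 33.7% of WT-labelled cells positive.

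The lymphotoxin genes went the other way. Lta encodes lymphotoxin alpha, secreted as a homotrimer that binds the TNF receptors, and Ltb encodes the membrane partner with which it forms the heterotrimer seen by the lymphotoxin beta receptor. Ltb was at 168 CPM in the KO-labelled and 375 CPM in the WT-labelled library, 2.23-fold (2.14 to 2.33) lower in the KO-labelled library, in 39.8% and 61.1% of cells. With cells thinned to 5000 UMIs and summed, its log2 ratio was -0.98 and no longer past 2-fold. Lta was at 67.1 CPM and 133 CPM, or 1.99-fold (1.86 to 2.12) lower, just short of the rule, in 21.3% of KO-labelled and 30.0% of WT-labelled cells. Its transcripts sat in few cells, as the 5% of cells with most Lta held 44.9% and 48.2% of its UMIs. Tnf, Lta and Ltb lie side by side on chromosome 17, Lta 1157 bp and Ltb 3060 bp from Tnf, and of these neighbours Tnf was the one with the higher level in the KO-labelled library.

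Among the receptors, Tnfrsf25, the gene of the death domain receptor DR3, was at 10.1 CPM in the KO-labelled and 45.0 CPM in the WT-labelled library, 4.48-fold (3.82 to 5.27) lower in the KO-labelled library. It was seen in 5.01% and 19.1% of cells after thinning and in 15.7% and 43.8% before it. The other 3 receptors lay within 2-fold. Tnfrsf4, the gene of OX40, was at 277 CPM and 288 CPM (ratio 0.961, 0.927 to 0.997), in 29.5% of KO-labelled and 36.4% of WT-labelled cells. Tnfrsf9, the gene of 4-1BB, was at 295 CPM and 246 CPM (ratio 1.20, 1.16 to 1.25), in 50.4% and 44.9% of cells. Tnfrsf18, the gene of GITR, was at 99.2 CPM and 143 CPM (ratio 0.696, 0.657 to 0.737), in 26.9% and 34.2% of cells. Tnfrsf9 overlaps Camta1 and Tnfrsf18 overlaps the antisense gene Gm16008, both on the opposite strand, and the sources used here do not say whether counting used strand, so reads of these pairs cannot be told apart with certainty.

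To see which cells carried the transcripts, cells were sorted by Il17a, Il17f, Ifng and Il2, each called at 5 or more UMIs of the 5000. A cell said to lack a cytokine has fewer than 5 UMIs of it, which need not be 0. In the KO-labelled library, 41.0% of cells called for Ifng and Il2 but not Il17a had an Il17a UMI. Of the cells there called for none of the 4, 64.9% had an Il2 UMI. The 8 classes that result do not share cells. Their sizes differed widely between the libraries. Cells with Ifng and Il2 but no Il17a were 239 (34.2%) in the KO-labelled and 26 (2.59%) in the WT-labelled library, whereas cells with Il17a and Il2 but no Ifng were 93 (13.3%) and 372 (37.1%), and cells with Il17a but neither Ifng nor Il2 were 43 (6.16%) and 207 (20.6%). Cells with none of the 4 cytokines were 77 and 92, and these were shallower than most, with median depths of 15118 and 14417 UMIs before thinning. Cells with Ifng but neither Il17a nor Il2 (Ifng+Il2-) were 28 and 21. They were the deepest class of the KO-labelled library, with a median of 28556 UMIs, and the shallowest of the WT-labelled library, with 12500 UMIs. No cell type that should lack the members was at hand to set a level for free RNA, so the lowest class of a gene is the only floor these data give, and a share close to it is not read as expression.

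**Figure D2:**
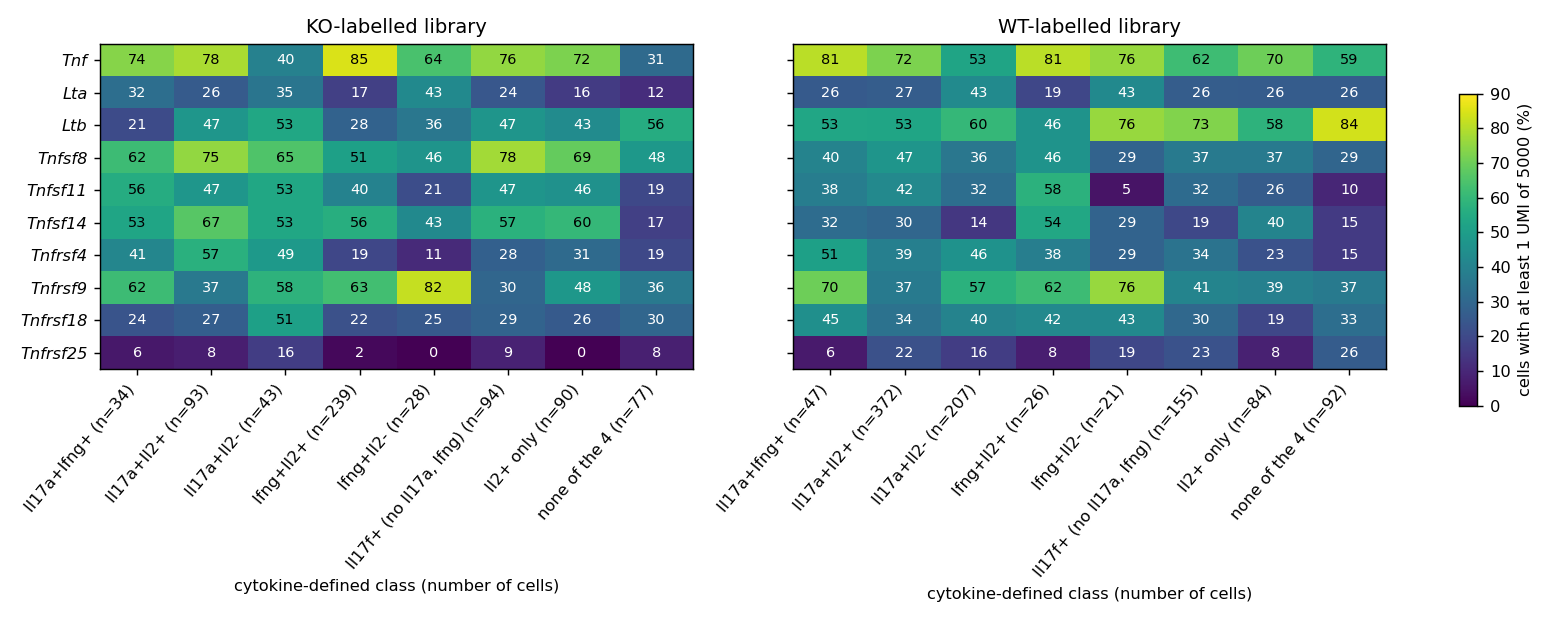
Percentage of cells with at least 1 UMI of each member (rows) in each of the 8 cytokine-defined classes (columns, with cell numbers) at 5000 UMIs per cell; left, KO-labelled library; right, WT-labelled library. Colour runs from 0 to 90% and the printed whole numbers are the percentages; Tnf is high in most Il2 classes, Tnfrsf9 in the Ifng classes and Ltb in cells with none of the 4 cytokines.

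Tnf went with Il2 in both libraries. In the KO-labelled library it was at 691 CPM in Il2-positive and 215 CPM in Il2-negative cells, a ratio of 3.22 (3.00 to 3.45). In the WT-labelled library the levels were 435 CPM and 187 CPM, a ratio of 2.33 (2.22 to 2.45). The relation was graded. With 0, 1 to 4, 5 to 19, 20 to 49 and at least 50 UMIs of Il2 per 5000, Tnf was seen in 39.7%, 42.7%, 64.2%, 76.6% and 90.6% of KO-labelled cells, and in 51.6%, 61.5%, 65.4%, 67.3% and 79.5% of WT-labelled cells. Over those steps its level was 235, 205, 316, 466 and 992 CPM in the KO-labelled library, and 163, 211, 284, 391 and 557 CPM in the WT-labelled library. Tnf was also higher in Ifng-positive than in Ifng-negative cells, 1.84-fold in the KO-labelled and 1.54-fold in the WT-labelled library, while by Il17a it differed little (ratios of 0.951 and 1.10). By level, Il17a+Ifng+ cells were the top class in both libraries, at 929 CPM in the KO-labelled and 507 CPM in the WT-labelled library. They number 34 and 47 cells. In the KO-labelled library they held a mean of 4.88 Tnf UMIs of 5000, with an SD of 7.25. By share of cells they stood below Ifng+Il2+ cells there, at 73.5% against 84.9%, with overlapping intervals. The class that carried most Tnf UMIs differed between the libraries, but class sizes differed too. The Ifng+Il2+ class carried 49.1% of all Tnf UMIs in the KO-labelled library, where it held 37.2% of the UMIs of all genes. The Il17a+Il2+ class carried 48.8% in the WT-labelled library, where it held 36.5% of the UMIs of all genes. The lowest level was 125 CPM, in cells with none of the 4 cytokines of the KO-labelled library, and 155 CPM, in Il17a+Il2- cells of the WT-labelled library.

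Tnfsf8, Tnfsf11 and Tnfsf14 were likewise higher with Il2. The ratio of Il2-positive over Il2-negative cells was 1.64 and 1.74 for Tnfsf8, 2.01 and 2.01 for Tnfsf11, and 1.84 and 2.36 for Tnfsf14, in the KO-labelled and then the WT-labelled library. By share of cells these genes had separate intervals in both libraries, except Tnfsf8 in the KO-labelled library (63.7% and 53.1%). By Ifng these genes parted. Tnfsf8 was at 419 CPM in Ifng-positive against 685 CPM in Ifng-negative cells of the KO-labelled library, but at 257 CPM against 195 CPM in the WT-labelled library. The class with its highest level was Il17f+ cells without Il17a or Ifng (844 CPM) in the KO-labelled library. Il17a+Il2+ cells were close behind there (829 CPM), with overlapping intervals. In the WT-labelled library it was Il17a+Ifng+ cells (283 CPM), with Ifng+Il2+ cells close behind (278 CPM). By share of WT-labelled cells, Il17a+Il2+ cells came first (47.0%, against 40.4% of Il17a+Ifng+ cells). Tnfsf14 ran lowest in cells with none of the 4 cytokines of the KO-labelled library, at 78.0 CPM and 16.9% of cells, and in Il17a+Il2- cells of the WT-labelled library, at 35.7 CPM and 14.5%.

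By level, Lta was lower in Il2-positive cells. It was at 54.9 CPM in Il2-positive and 109 CPM in Il2-negative cells of the KO-labelled library (ratio 0.501, 0.445 to 0.565), and at 84.0 CPM and 195 CPM in the WT-labelled library (ratio 0.430, 0.400 to 0.462). The shares of cells with Lta were 20.5% and 24.0% in the KO-labelled library, with overlapping intervals, and 25.2% and 36.8% in the WT-labelled library. Not every Il2-negative class was high, since cells with none of the 4 cytokines had the lowest Lta of the KO-labelled classes, 42.2 CPM in 11.7% of cells. Il17a+Il2- cells held the most in both, 230 CPM in the KO-labelled and 227 CPM in the WT-labelled library. They carried 22.2% of Lta UMIs while making up 6.16% of cells and 6.47% of the UMIs of all genes in the KO-labelled library. In the WT-labelled library they carried 44.9% of Lta UMIs while making up 20.6% of cells and 26.4% of the UMIs of all genes. Within that class Lta did not differ between the libraries beyond counting error, with a ratio of 1.01 (0.886 to 1.16). The class also had the highest share of cycling cells in both libraries, 16.3% and 12.6%, and cycling cells are described further below.

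Ltb was lower in cells with Ifng taken as a whole. Ifng-positive cells held 86.1 CPM against 244 CPM in Ifng-negative cells of the KO-labelled library, 2.83-fold (2.61 to 3.08) lower, and 260 CPM against 387 CPM in the WT-labelled library, 1.49-fold (1.37 to 1.61) lower. The shares of cells with Ltb were 28.2% and 48.6% in the KO-labelled library, and 56.4% and 61.5%, with overlapping intervals, in the WT-labelled library. There the 21 Ifng+Il2- cells went the other way, with Ltb at 535 CPM in 76.2% of cells. Cells with none of the 4 cytokines had the most frequent Ltb, in 55.8% of the KO-labelled and 83.7% of the WT-labelled cells of that class, at 343 CPM and 593 CPM. By Il17a the sign differed, since Il17a-positive cells had 1.37-fold more Ltb than negative ones in the KO-labelled library and 1.54-fold less in the WT-labelled library.

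Among the receptors, Tnfrsf4 went with Il17a, at 551 CPM in Il17a-positive against 172 CPM in Il17a-negative cells of the KO-labelled library (ratio 3.21, 3.04 to 3.40), and 328 CPM against 198 CPM in the WT-labelled library (ratio 1.65, 1.56 to 1.75). The Il17a+Il2+ class, with 13.3% of the KO-labelled cells and 14.2% of the UMIs of all genes, held 35.3% of that library's Tnfrsf4 UMIs. The gene was uneven among cells, for the 5% of cells with most of it held 51.9% and 39.2% of its UMIs. By Ifng it was at 149 CPM in positive and 398 CPM in negative cells of the KO-labelled library, and at 319 CPM and 285 CPM in the WT-labelled library. There the shares of cells with Tnfrsf4 were 42.6% and 35.7%, with overlapping intervals.

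Tnfrsf9 went with Ifng, at 389 CPM in Ifng-positive and 206 CPM in Ifng-negative cells of the KO-labelled library (ratio 1.89, 1.79 to 2.0), and 533 CPM and 213 CPM in the WT-labelled library (ratio 2.5, 2.35 to 2.66). Over 0, 1 to 4, 5 to 19, 20 to 49 and at least 50 UMIs of Ifng it was seen in 39.7%, 40.2%, 54.2%, 53.8% and 74.8% of KO-labelled cells, and in 42.0%, 44.5%, 61.9%, 69.6% and 79.3% of WT-labelled cells. Ifng+Il2- cells were the class with the most, 639 CPM and 599 CPM, and there the libraries did not differ beyond counting error (ratio 1.07, 0.913 to 1.25). That class has 28 and 21 cells. In the WT-labelled library Il17a+Ifng+ cells were level with it, at 598 CPM. Il17a+Il2- cells of the WT-labelled library stood apart from the class next below them (57.5% against 40.6% of cells with Tnfrsf9). For every other member and class, neighbours in the order of shares had overlapping intervals.

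By level, Tnfrsf18 was higher with Il17a, 1.56-fold in the KO-labelled and 1.42-fold in the WT-labelled library, and lower with Il2, at ratios of 0.634 and 0.660. Its shares of cells had overlapping intervals by Il17a in both libraries, and by Il2 in the WT-labelled library. Tnfrsf25 was lower with Ifng, at 3.67 CPM in Ifng-positive and 15.9 CPM in Ifng-negative cells of the KO-labelled library, and 21.4 CPM and 47.8 CPM in the WT-labelled library. After thinning it was found in 0 of 28 Ifng+Il2- and 0 of 90 Il2-only cells of the KO-labelled library, which at 3 cells of the total allows up to 10.7% and 3.33% of cells with a UMI at that depth. Before thinning these classes held 3 and 6 UMIs of it. In the WT-labelled library the same classes had it in 19.0% and 8.33% of cells.

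Set side by side, the ratio between positive and negative cells lay on the same side of 1 in both libraries, with intervals clear of 1 in both, for 8 of 10 members by Il2, 8 by Il17f, 6 by Ifng and 5 by Il17a. Among the other genes that reach 20 CPM, 38.2% did so by Il2, 12.6% by Il17f, 25.1% by Ifng and 19.7% by Il17a. The ratio lay clear of 1 on opposite sides for 0 members by Il2 (2.08% of genes), 1 by Il17f (4.51%), 4 by Ifng (2.62%) and 3 by Il17a (3.3%). Genes of high level pass such counting intervals more readily, and the members were not matched for level. By share of cells, positive and negative cells had separate intervals in the KO-labelled library for 6 members by Il2 (12.9% of the other genes), 5 by Il17f (4.35%), 6 by Ifng (8.85%) and 4 by Il17a (3.58%). In the WT-labelled library they did for 7 members by Il2 (10.3%), 2 by Il17f (5.3%), 4 by Ifng (3.9%) and 3 by Il17a (4.66%).

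**Figure D3:**
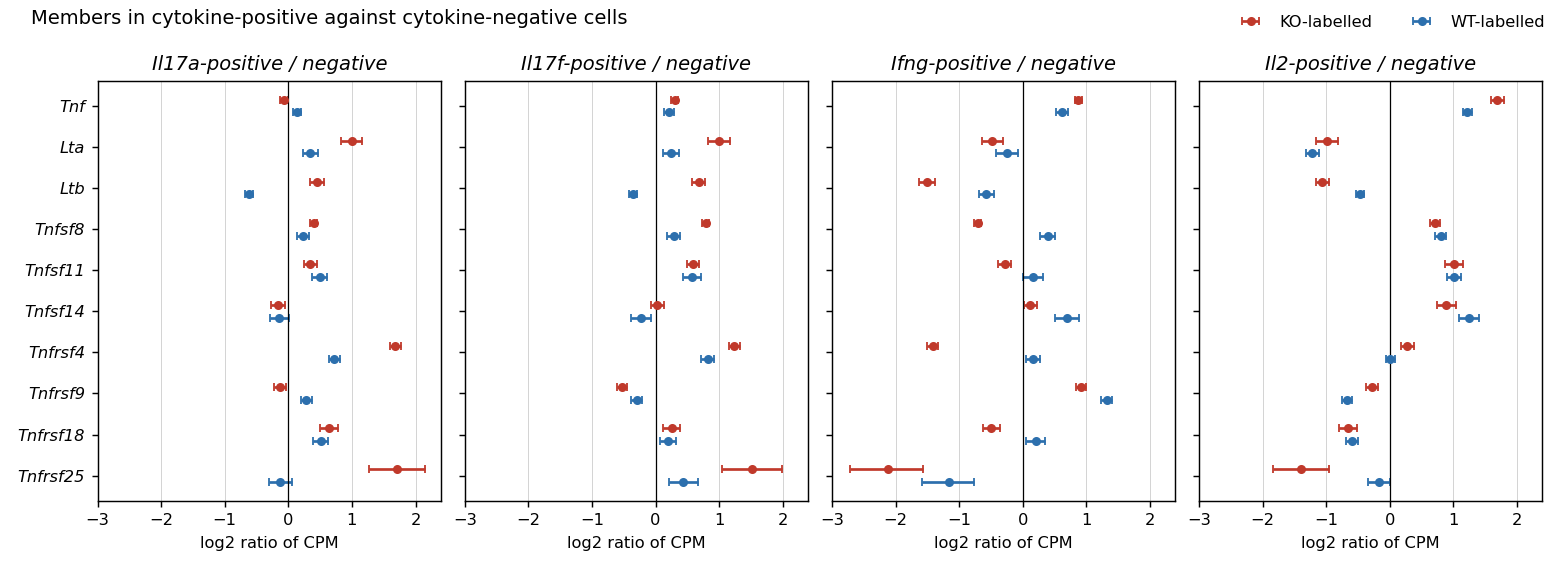
Log2 ratio of CPM between cytokine-positive and cytokine-negative cells for each member (rows), one panel per cytokine. Red, KO-labelled library; blue, WT-labelled library; bars are 95% counting intervals. By Il2 no member has intervals on opposite sides of 0, while by Ifng Tnfsf8, Tnfsf11, Tnfrsf4 and Tnfrsf18 do.

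Because class sizes differed, the libraries were also compared class by class. Tnfsf8 was higher in the KO-labelled cells of 8 of 8 classes, with ratios of 1.37 to 4.57 and intervals clear of 1 in 7. It was at 844 CPM against 199 CPM in Il17f+ cells without Il17a or Ifng, and at 428 CPM against 278 CPM in Ifng+Il2+ cells. Tnfsf14 was higher in 8 of 8 as well (1.05 to 3.40, intervals clear of 1 in 7), the exception being Ifng+Il2+ cells, where it was at 197 CPM and 187 CPM. Tnfrsf25 was lower in 8 of 8, from 1.24-fold to 9.97-fold, again with 7 intervals clear of 1.

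Lta and Ltb were lower in the KO-labelled cells of 7 of 8 classes each, the exception for both being Il17a+Il2- cells, where Ltb was at 365 CPM and 343 CPM. Tnf was higher in 7 of 8 classes and lower in cells with none of the 4 cytokines, at 125 CPM in the KO-labelled and 219 CPM in the WT-labelled library (ratio 0.571, 0.475 to 0.685). Tnfsf11 was higher in 7 of 8. Its ratio of 9.49 in Ifng+Il2- cells rests on 79 KO-labelled UMIs and 4 WT-labelled UMIs, with an interval of 3.56 to 35.7.

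Tnfrsf4 split by class although its library levels were close. Il17a+Il2+ cells held 689 CPM in the KO-labelled and 306 CPM in the WT-labelled library (ratio 2.25, 2.12 to 2.39), and Il2-only cells 303 CPM and 124 CPM. In Ifng+Il2+ cells it was at 114 CPM and 345 CPM, 3.01-fold (2.57 to 3.52) lower in the KO-labelled library, and in Ifng+Il2- cells at 78.3 CPM and 206 CPM. Tnfrsf9 was higher in 5 classes (intervals clear of 1 in 2) and lower in 3 (clear in 3), within ratios of 0.694 to 1.32. Tnfrsf18 was lower in 7 of 8, with intervals clear of 1 in 4.

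With the classes of both libraries weighted by the class shares of the WT-labelled library, the ratio was 3.31 for Tnfsf8, 2.29 for Tnfsf14, 1.74 for Tnfsf11, 1.64 for Tnfrsf4, 1.35 for Tnf, 1.01 for Tnfrsf9, 0.905 for Tnfrsf18, 0.749 for Lta, 0.611 for Ltb and 0.414 for Tnfrsf25. Ltb then lay within 2-fold, and Tnfrsf4 moved from 0.961 over all cells. With the class shares of the KO-labelled library as weights, Tnfsf14 came to 1.58 and Tnfrsf4 to 1.03. With equal weight per class Tnfrsf4 came to 1.20 and Tnfrsf9 to 0.973, each on the other side of 1 from its ratio over all cells.

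**Figure D4:**
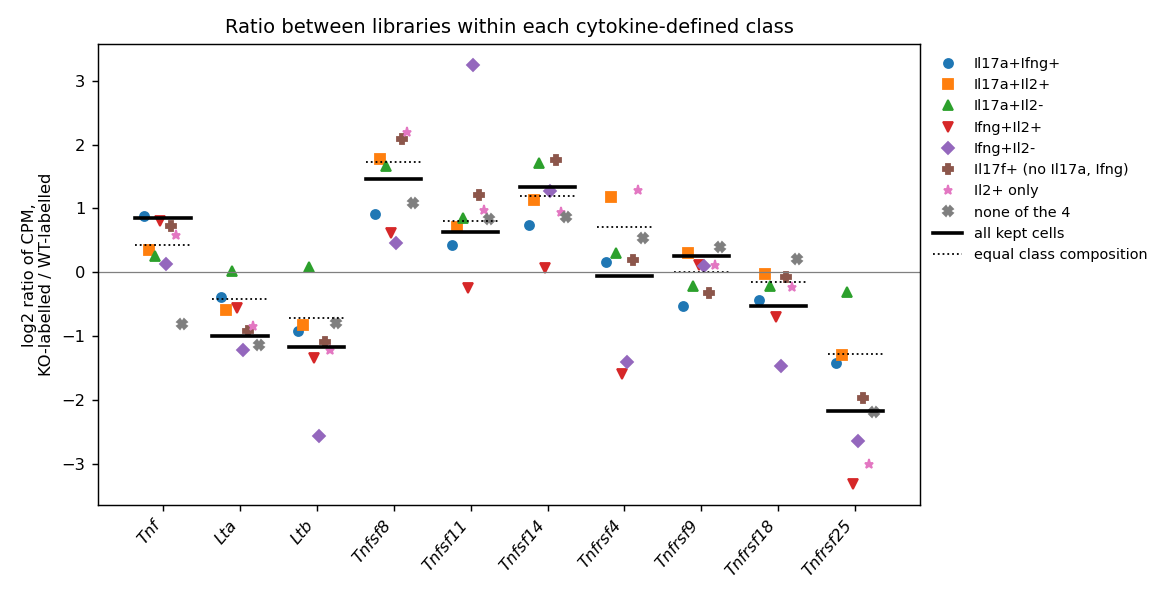
Log2 ratio of CPM, KO-labelled over WT-labelled, of each member within each cytokine-defined class (symbols); solid bars give the ratio over all kept cells and dotted bars the ratio at equal class composition. Tnfsf8 and Tnfsf14 lie above 0 and Tnfrsf25 below 0 in 8 of 8 classes, while Tnfrsf4 spreads to both sides.

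Members could share cells. Of 10 members, a cell of either library had a median of 4 detected at 5000 UMIs, and the summed members took a median of 10 UMIs in KO-labelled and 8 UMIs in WT-labelled cells. Ltb was found in 55.0% of cells with Lta and 35.7% of cells without it in the KO-labelled library, and in 77.1% and 54.2% in the WT-labelled library, with no overlap of the intervals in either. Pearson's r of log2(1 + UMIs) for this pair was 0.20 over 698 KO-labelled cells and 0.34 over 1004 WT-labelled cells, which share 1 library each and a fixed depth. Tnf and Ltb, whose genes are neighbours too, gave r of -0.03 and 0.07. Tnfrsf4 and Tnfrsf18, which lie 9551 bp apart on chromosome 4, also overlapped, although most cells with one lacked the other. Tnfrsf18 was found in 39.3% of cells with Tnfrsf4 and 21.7% without in the KO-labelled library, and in 46.3% and 27.2% in the WT-labelled library (r of 0.29 and 0.23). Both were seen in 11.6% of KO-labelled and 16.8% of WT-labelled cells. Tnfsf8 and Tnfsf14 gave r of 0.19 and 0.18. Tnfsf11, the RANKL gene, and Tnfrsf4 gave r of 0.31 in the KO-labelled and 0.13 in the WT-labelled library. Tnfsf8 and Tnfrsf9 gave r of -0.22 in the KO-labelled and -0.02 in the WT-labelled library.

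**Figure D5:**
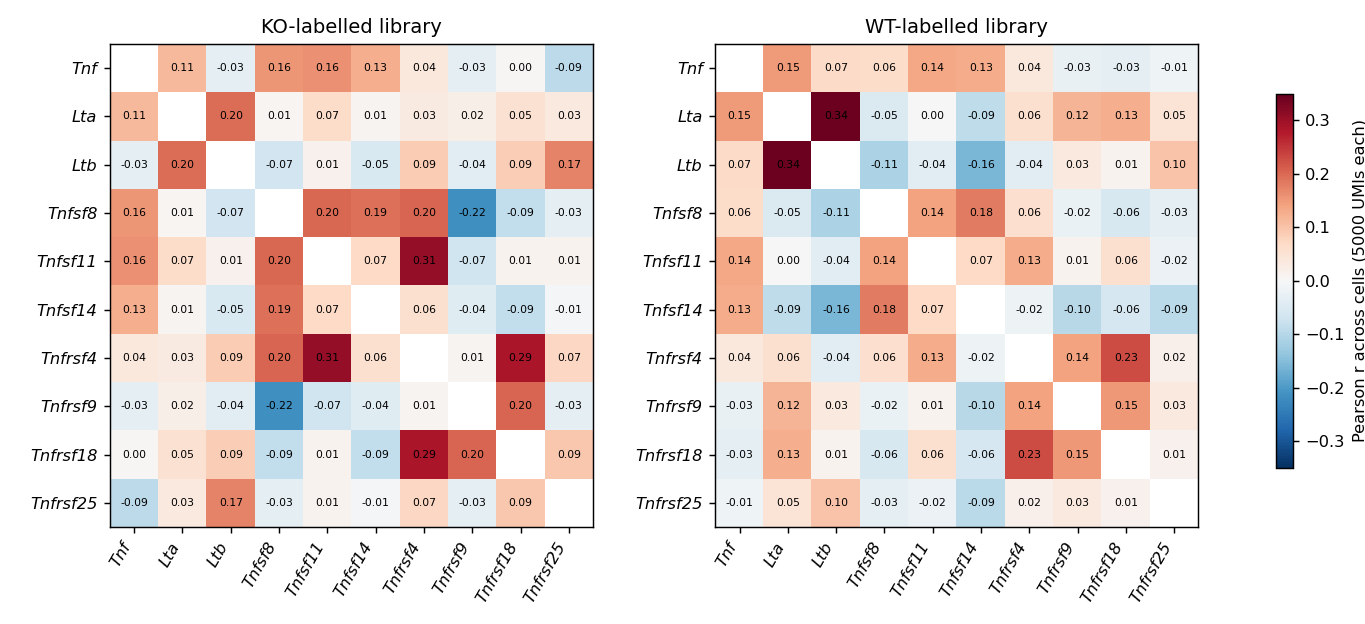
Pearson's r of log2(1 + UMIs) between members across cells thinned to 5000 UMIs; left, 698 KO-labelled cells; right, 1004 WT-labelled cells; colour runs from -0.35 to 0.35. Lta with Ltb (0.20 and 0.34), Tnfrsf4 with Tnfrsf18 (0.29 and 0.23) and Tnfsf8 with Tnfsf14 (0.19 and 0.18) are positive in both libraries, and Tnfsf11 with Tnfrsf4 is 0.31 in the KO-labelled and 0.13 in the WT-labelled library.

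Across 4639 genes detected in at least 10% of cells of both libraries, the gene most like Tnf by the lower of its r in the 2 libraries was Il2 (0.50 in the KO-labelled and 0.32 in the WT-labelled library), followed by Nfkbid, which encodes a nuclear inhibitor of kappaB family protein, and the chemokine gene Ccl4. Tnfsf8 was most like Fam107b, Slamf1 and Reep3, and Tnfsf14 most like Ptpn22, a phosphatase gene, Maml2 and Il2. Tnfrsf9 was most like Phgdh, which encodes an enzyme of serine synthesis, then Ifng (0.32 and 0.24) and Lgals3. Tnfrsf18 was most like Actb, Lgals1 and Tnfrsf4, and Ltb most like Actb and Limd2. Tnfrsf4 was most like Sdf4 (0.30 and 0.25), whose annotated end lies 232 bp before the start of Tnfrsf4 on the same strand, and then Tnfrsf18. No gene reached an r of 0.2 in both libraries with Lta, Tnfsf11 or Tnfrsf25. These values describe cells within a library.

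Of 10 ligand and receptor genes that pair with the members, 4 had at most 6 UMIs in either library. Ltbr, which encodes the lymphotoxin beta receptor, and Tnfsf18, which encodes the GITR ligand, had 0 UMIs in either library, which at 3 counts of the total allows up to 0.168 CPM in the KO-labelled and 0.123 CPM in the WT-labelled library. Tnfsf15, the gene of the DR3 ligand TL1A, had 0 and 2 UMIs, and Tnfrsf11a, the gene of RANK, 3 and 6 UMIs. The other 6 averaged at least 1 CPM. Tnfrsf14, the gene of HVEM, was the lowest of these, at 1.06 CPM and 1.02 CPM. Tnfrsf8, the gene of CD30, the receptor of the Tnfsf8 product, was at 2.35 CPM in the KO-labelled and 11.1 CPM in the WT-labelled library, 4.72-fold (3.40 to 6.70) lower, opposite in direction to its ligand gene. Tnfsf9, which encodes the 4-1BB ligand, was at 104 CPM and 30.4 CPM (ratio 3.42, 3.14 to 3.73), and Tnfsf4, which encodes the OX40 ligand, at 15.5 CPM and 1.23 CPM (ratio 12.6, 8.64 to 19.1). The TNF receptor genes Tnfrsf1b and Tnfrsf1a were at 32.4 CPM and 4.69 CPM in the KO-labelled library, and at 27.4 CPM and 5.36 CPM in the WT-labelled library.

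Of the other 12 ligand genes of the superfamily, 7 averaged at least 1 CPM. Of these 5 were at least 2-fold higher in the KO-labelled library and 0 lower, against 2.08% higher and 3.01% lower of 11322 genes averaging at least 1 CPM, and their median log2 ratio was 1.74. Besides Tnfsf9 and Tnfsf4 they were Cd70 (31.8 CPM and 7.40 CPM), whose product binds CD27, Tnfsf10 (13.7 CPM and 4.70 CPM), the gene of TRAIL, and the death ligand gene Fasl (3.18 CPM and 0.204 CPM). Of the 5, Tnfsf9 and Cd70 reached 20 CPM. Cd40lg, the CD40 ligand gene, was level at 29.8 CPM and 30.9 CPM, in 3.58% of KO-labelled and 4.58% of WT-labelled cells.

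Of the 24 other receptor genes, 14 were measured, 0 were 2-fold higher, 1 (Tnfrsf8) was 2-fold lower, and the median log2 ratio was -0.04. That is near the 2.08% higher and 3.01% lower of all genes so measured, and the difference from the ligand genes was not tested. Cd27, the receptor of the Cd70 product, had the highest ratio of those above 20 CPM, at 196 CPM in the KO-labelled and 107 CPM in the WT-labelled library (1.83-fold), and Tnfrsf13b the lowest, at 15.4 CPM and 28.0 CPM. Among 32 adaptor and NF-kappaB genes that act downstream of these receptors, all 32 were measured and 30 lay within 2-fold, again near the share of all genes, with a median log2 ratio of 0.09. Nfkbie, which encodes an inhibitor of NF-kappaB, was higher at 25.3 CPM against 11.8 CPM, and Tnip1, which encodes a binding partner of the NF-kappaB inhibitor A20, was lower at 43.7 CPM against 90.4 CPM.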

How the data were processed

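The deposited values are raw UMI counts per gene and barcode, 1 matrix for each of 2 libraries, which the authors made from 10x 3′ version 3.1 libraries with Cell Ranger 7.0.0, per the file headers. Reads were aligned to mm10, per the submitters' processing notes. For the annotation, the treatment of introns and the use of strand, nothing is given in the sources used here. Multiplexing tags (4.20% of counts in the KO-labelled and 3.83% in the WT-labelled library) stayed out of the totals.

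UMIs of kept barcodes were summed per library or class and divided by the total (CPM). 1 UMI is worth 0.0559 CPM in the KO-labelled and 0.0409 CPM in the WT-labelled library. Intervals are exact Poisson for sums, exact binomial (Clopper-Pearson) for shares and conditional binomial for ratios, and a count of 0 is limited at 3 counts of the total. For sums and ratios they take each UMI as independent and omit the spread between cells. Log2 ratios use a pseudocount of 1 CPM, which understates those of low genes, while folds use none. Scrublet (scanpy 1.11.5, expected rate 5%) called 6 KO-labelled and 5 WT-labelled doublets (0.846% and 0.491% of cells), kept except in an alternative.

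The members, lists and rules were chosen with earlier results of these data known. The text names the 10 members, Nfatc1, list genes past the rule of size with the highest and lowest of each list above 20 CPM, and up to 3 genes most like each member (r of at least 0.2 in both libraries). Genes that pair with the members as ligand or receptor, and list genes 2-fold apart under 20 CPM, were added after their values were seen. Coordinates are from GENCODE M21, in which 99.6% of gene identifiers were found, and upstream sequences from RefSeq. Alternatives were edgeR 4.0.16 TMM and median ratio scaling, other totals, pseudocounts, floors, cell filters, thinning depths, cytokine cutoffs and class weights. The scripts were tested on simulated counts. The software was R 4.3.3 and Python 3.11.15 with pandas 2.3.3, SciPy 1.17.1 and NumPy 2.4.6.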

Additional observations from a re-analysis of the deposited data

Results flagged for a closer look

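For 8 pairs of a member and a cytokine, the ratio of CPM between cytokine-positive and cytokine-negative cells lay clear of 1 on opposite sides in the 2 libraries. The difference between the libraries was not tested in any of them, since each condition has 1 library. The intervals of these ratios omit the spread between cells. By share of cells, each of the 8 pairs had overlapping intervals between positive and negative cells in 1 library or both. Separate intervals were seen for Tnfsf8 and Tnfrsf4 by Ifng in the KO-labelled library and for Ltb by Il17a in the WT-labelled library. By Il17a, Tnf had a ratio of 0.951 in the KO-labelled and 1.10 in the WT-labelled library, Ltb of 1.37 and 0.649, and Tnfrsf9 of 0.912 and 1.22. By Il17f, Ltb had a ratio of 1.60 in the KO-labelled and 0.784 in the WT-labelled library. By Ifng, Tnfsf8 had a ratio of 0.612 in the KO-labelled and 1.32 in the WT-labelled library, Tnfsf11 of 0.821 and 1.12, Tnfrsf4 of 0.374 and 1.12, and Tnfrsf18 of 0.711 and 1.15. Ltb, Tnfsf8 and Tnfrsf4 had the widest gaps. The pairs of Tnf with Il17a and of Tnfrsf4 with Ifng changed sign in 1 library or both at another UMI cutoff, with the values given under the processing below.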

How the results depend on the processing

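No paired analysis was possible because each group has 1 library, and no library could be left out. Over 12 alternatives of scaling, pseudocount and cell filter per member, the ratio between libraries over all cells kept its direction for all 10, with log2 ranges of 1.38 to 1.51 for Tnfsf8, 1.24 to 1.37 for Tnfsf14, -1.23 to -0.98 for Ltb, -2.21 to -1.73 for Tnfrsf25 and -0.99 to -0.68 for Lta. Class weights did turn a direction: Tnfrsf4 lay above 1 under all 3 weightings and Tnfrsf9 at 0.973 under equal weights. The count of members 2-fold lower became 1 (from 2) with cells thinned to 5000 UMIs and with a floor of 50 CPM, and that of members 2-fold higher at equal class composition became 1 (from 2) with KO-labelled or equal class weights. Among other ligands, 5 were 2-fold higher without the floor, and 1 with a floor of 50 CPM or without the 5% of cells with most UMIs, beside 2. Among other receptors, 1 was lower without the floor, beside 0. Among signalling genes, 0 were lower with the total taken without the 50 highest genes, in thinned cells or at a pseudocount of 5 CPM, and 0 were higher at that pseudocount or a floor of 50 CPM, beside 1 each. Over all genes, 236 were higher and 341 lower without the floor, and 68 lower at 50 CPM, beside 127 and 116.

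By cytokine, 227 of 320 values kept within the counting error, 87 moved further and 6 changed sign. A change of sign was counted only where the main log2 ratio was larger than its counting error. At a cutoff of 1 UMI the log2 ratio by Il17a was 0.28 for Tnf and 0.022 for Tnfsf14 in the KO-labelled library and -0.021 for Tnf in the WT-labelled library, and by Ifng -0.064 for Tnfrsf4 in the WT-labelled library. At a cutoff of 10 UMIs Tnf by Il17a was 0.0080 in the KO-labelled library, and at 10000 UMIs Tnfrsf4 by Il2 was -0.042 there. Members whose shares of cells had separate intervals numbered 1 by Il17a and 2 by Il2 in the KO-labelled library and 2 by Ifng in the WT-labelled library at 1 UMI (4, 6 and 4 at 5 UMIs), and 2 by Ifng in the WT-labelled library at 10000 UMIs. The cause of these moves was not tested. Classes of 21 to 47 cells limit what depth can show, Ifng+Il2- cells above all.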

Other observations

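Cycling cells, taken as those with 5 or more UMIs of Mki67, Top2a, Ube2c, Cdk1 and Ccnb1 per 5000, were 21 in the KO-labelled and 61 in the WT-labelled library. They were deeper than the rest, with medians of 63771 and 48475 UMIs before thinning, against 21356 and 20523 UMIs in other cells. Tnfrsf4 was at 734 CPM in cycling against 238 CPM in other KO-labelled cells, and at 454 CPM against 262 CPM in WT-labelled cells. Lta was at 121 CPM against 62.6 CPM in the KO-labelled and 241 CPM against 117 CPM in the WT-labelled library, and Tnfrsf18 at 186 CPM against 91.8 CPM and 213 CPM against 132 CPM. By level, Tnfsf8 and Tnfsf14 went the other way. Tnfsf8 was at 383 CPM in cycling against 570 CPM in other KO-labelled cells and 96.7 CPM against 218 CPM in WT-labelled cells, and Tnfsf14 at 112 CPM against 183 CPM and 34.7 CPM against 75.7 CPM. By share of cells Tnfsf14 did not follow. It was seen in 66.7% of cycling and 52.7% of other KO-labelled cells. The WT-labelled shares were 19.7% and 25.7%, and the intervals overlapped in both libraries. The KO-labelled values rest on few cells. Of the cytokine-defined classes, Il17a+Il2- cells had the highest share of cycling cells, 16.3% in the KO-labelled and 12.6% in the WT-labelled library. How far cycling cells set the Lta level of that class was not tested. Without cycling cells the log2 ratio of Tnfrsf4 between the libraries was -0.14, beside -0.06 with them, and that of Tnfsf8 was 1.38, beside 1.46.

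The highest share of cells that a member reached in any class differed between members. In the KO-labelled library Tnfrsf25 had its highest share in Il17a+Il2- cells, at 16.3%, and in the WT-labelled library in cells with none of the 4 cytokines, at 26.1%. Tnf reached 84.9% of Ifng+Il2+ cells in the KO-labelled and 80.9% of Il17a+Ifng+ cells in the WT-labelled library. Il17a+Il2- cells had the most receptor genes per cell of the KO-labelled classes, a mean of 1.74 of 4 detected against 1.12 over all cells of that library, and the corresponding WT-labelled class had 1.60 against 1.35. In the WT-labelled library Il17a+Ifng+ (1.72) and Ifng+Il2- cells (1.67) had more.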
